A study of Mus musculus with 8 samples.

Results

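This comparison set *Arid1a* KO tumors treated with JSH-23 against vehicle-treated control tumors, and asked how far the inhibitor brought KO tumors back to the untreated control state and where expression went past it. The samples were chosen by their labels alone: genotype Myc-CaP *Arid1a* KO with JSH-23 (2 samples, KO JSH-23) and genotype Myc-CaP EV with vehicle (2 samples, WT vehicle), which are 4 of the 8 RNA-seq samples in the study. Myc-CaP is a mouse prostate cancer cell line driven by a *Myc* transgene. Cells carrying an sgRNA against *Arid1a* in the lentiviral vector pLentiCRISPRv2, or the empty vector (EV, called WT here), grew under the skin of male FVB mice that were 6 weeks old at inoculation. From day 16 the mice received JSH-23 (in DMSO, diluted in corn oil) by daily gavage for 2 weeks, or corn oil as vehicle, and EpCAM+ CD45- cells were then sorted for sequencing. The remaining 4 samples, KO vehicle and WT JSH-23 with 2 samples each, give the effect of the KO alone and of the drug alone. The sources do not say how single tumors map to samples, so the p-values below measure the spread between these samples, which may be technical. That spread was small, with a common coefficient of variation of 1.61% beyond counting noise. The p-values are therefore not read as a measure of the spread between tumors.

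ARID1A is a DNA-binding subunit of the SWI/SNF complex, which uses ATP to move nucleosomes and so opens or closes enhancers and promoters. NF-κB is a family of dimeric transcription factors (RelA, RelB, c-Rel, p50 and p52) that IκB proteins hold in the cytoplasm. When IκB is degraded, the dimers enter the nucleus and bind κB sites near genes for chemokines, cytokines and their own inhibitors, among them *Nfkbia*, which encodes IκBα. JSH-23 is a small molecule described as blocking the nuclear entry of RelA. It acts on where the RelA protein goes, so RNA levels read its effect only through target genes.

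Total gene counts ran from 16401581 to 21972231 per sample, and 3 counts corresponded to between 0.144 and 0.182 CPM, the read count of a gene divided by the TMM-scaled size of its library. The targeted gene *Arid1a* (chr4:133679008-133756769, mm10, minus strand) measured 156 and 161 CPM in WT vehicle, 103 and 106 CPM in KO vehicle, 93.8 and 95.9 CPM in KO JSH-23, and 144 and 155 CPM in WT JSH-23. All 4 KO samples lay below all 4 WT samples, although transcript remained. Among markers of the labelled cell type, *Epcam* lay between 0 and 0.194 CPM in every sample despite the EpCAM+ sort. The keratin genes *Krt8* and *Krt19* and the tight junction gene *Cldn3* were present, but only 5 of 8 epithelial markers had enough counts to be tested. Of 4 prostate luminal markers 3 were tested, with 1 at 0 in each of WT vehicle, KO vehicle and KO JSH-23. Markers of other cells were low: the pan-leukocyte gene *Ptprc* (CD45) did not exceed 0.558 CPM. The summed level of 16 myeloid and neutrophil markers was 21.9 and 24.1 CPM in WT vehicle and 13.2 and 10.5 CPM in KO JSH-23. It was 20.6 and 22.7 CPM in KO vehicle and uneven in WT JSH-23, at 21.3 and 10.7 CPM. Of the 16, 3 were at 0 in WT vehicle, 5 in KO vehicle and 4 in KO JSH-23. Of 7 tested, 6 were lower and 1 higher in KO vehicle than in WT vehicle, and 5 were lower in KO JSH-23. The 8 nerve and Schwann cell markers summed to 30.4 and 31.7 CPM in WT vehicle and 50.6 and 50.5 CPM in KO JSH-23. They summed to 50.5 and 46.6 CPM in KO vehicle and 35.3 and 51.4 CPM in WT JSH-23. In each of these groups 3 of the 6 tested were higher than in WT vehicle. *Nefl* and *Nefm*, neurofilament genes of axons, were at 0 in WT vehicle and reached 2 to 3.07 CPM in KO JSH-23. In bulk samples, fewer cells of a type and less RNA per cell cannot be told apart.

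The treated KO tumors were not back at the control state by the number of genes that differed. Of 13921 genes tested, 2987 (21.5%) were called in KO JSH-23 against WT vehicle, 1043 higher (7.49%) and 1944 lower (14%). A gene was called where edgeR's quasi-likelihood test gave a Benjamini-Hochberg adjusted p under 0.05 and the fold was at least 1.5. KO vehicle against the same WT vehicle samples gave 1760 calls (12.6%), 1041 higher (7.48%) and 719 lower (5.16%), so higher calls outnumbered lower ones in untreated KO tumors and lower calls outnumbered higher ones in treated KO tumors. Treated against untreated KO tumors gave 3625 calls (26%), of which 1267 were higher (9.1%) and 2358 lower (16.9%) in KO JSH-23. In WT tumors the drug alone gave 2197 calls (15.8%), 773 higher (5.55%) and 1424 lower (10.2%). The median absolute log2 fold change over all genes was 0.33 in KO JSH-23 against WT vehicle, 0.23 in KO vehicle against WT vehicle and 0.27 in WT JSH-23 against WT vehicle, and these 3 comparisons share the WT vehicle samples. At least 4-fold changes were called in 91 genes up and 292 down after treatment, compared with 132 up and 57 down in untreated KO tumors.

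**Figure D1:**
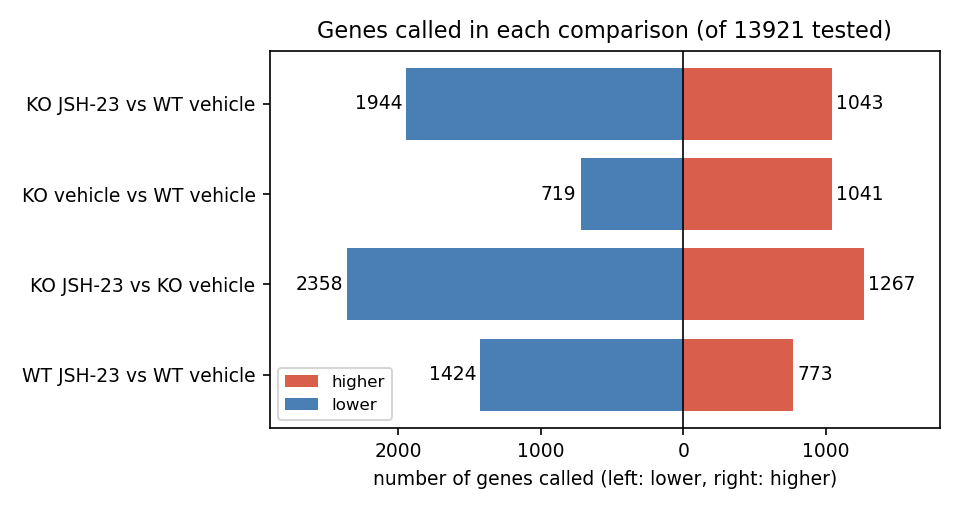
Number of genes called lower (bars to the left of 0) and higher (bars to the right) in each of the 4 comparisons, of 13921 tested, with the count beside each bar. Lower calls outnumber higher ones in each comparison that involves JSH-23 (1944 against 1043 for KO JSH-23 against WT vehicle), and higher calls outnumber lower ones in KO vehicle against WT vehicle (1041 against 719).

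The balance of directions depended in part on scaling and on low counts. The share of calls that were higher in KO JSH-23 was 34.9% with TMM scaling, 24.5% with no scaling beyond library size, and 12.4% with limma on log2(TPM + 1), where the median of all genes moved from -0.01 to -0.19. In the 10213 genes averaging 5 CPM or more, 619 were higher and 904 lower in KO JSH-23 against WT vehicle, and 445 were higher and 440 lower in KO vehicle against WT vehicle.

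The 1041 genes raised by the KO were then placed by their level after treatment. A gene is named kept where it was still called higher in KO JSH-23 against WT vehicle, overshot where it was called lower, within where the 95% interval of the log2 fold change lay inside 1.5-fold on either side of WT vehicle, and unresolved otherwise. Of the KO-raised genes 242 (23.2%) were kept, 174 (16.7%) overshot, 236 (22.7%) were within and 389 (37.4%) were unresolved. The overshot share is close to the 14% of all tested genes called lower, and the kept share stands beside 7.49% of all genes called higher. The median level was 31.8 CPM for genes within and 1.59 CPM for unresolved genes. Among the 468 KO-raised genes with at least 5 CPM, 220 (47%) were within, 113 (24.1%) kept, 55 (11.8%) overshot and 80 (17.1%) unresolved. The median log2 fold change of all KO-raised genes against WT vehicle was 0.98 in KO vehicle, 0.12 in KO JSH-23 and -0.28 in WT JSH-23. The overshot count was the least stable, at 115 without WT vehicle sample 1 and 104 without WT vehicle sample 2. Because both placements use the same WT vehicle samples, the shares are a description. With a separate WT vehicle sample for each placement, an alternative chosen after seeing the data, the kept share was 21.2% or 20.4% and the overshot share 14.5% or 16.0%.

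Of the 719 KO-lowered genes, 309 (43.0%) were kept, 216 (30%) within, 162 (22.5%) unresolved and 32 (4.5%) overshot. The kept share stands beside 14% of all tested genes called lower, and the overshot share beside 7.49% called higher. Their median log2 fold change against WT vehicle was -0.86 in KO vehicle and -0.52 in KO JSH-23. At 5 CPM or more, 145 of 434 (33.4%) were kept and 208 (47.9%) were within. With separate WT vehicle samples the kept share was 36.7% or 37.2% and the overshot share 5.6% or 5.0%.

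**Figure D2:**
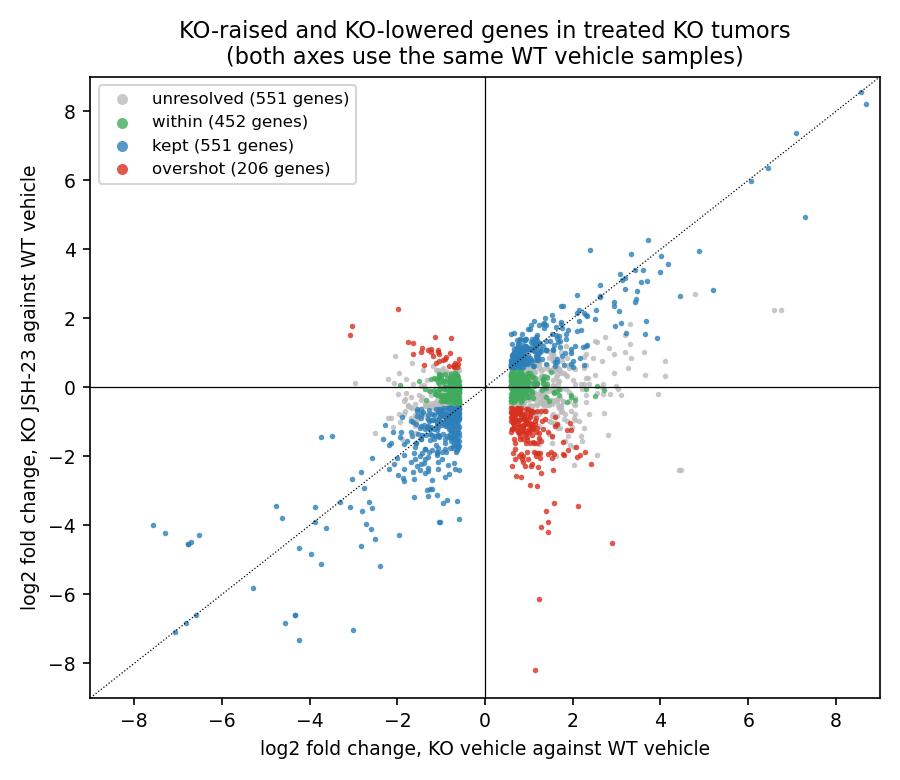
Each point is 1 of the 1760 KO-raised or KO-lowered genes, with its log2 fold change in KO vehicle against WT vehicle on the horizontal axis and in KO JSH-23 against WT vehicle on the vertical axis, coloured by class, and the dotted line marks equal change. Kept genes (551) lie around the diagonal, genes within 1.5-fold of WT vehicle (452) form a flat band at 0, and most of the 206 overshot genes lie at lower right, raised by the KO and below WT vehicle after treatment.

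Some of the genes most changed by the KO stayed changed under the drug. *Mgp* (chr6:136872435-136875823), which encodes a secreted inhibitor of calcification, measured 6.18 and 7.59 CPM in WT vehicle, 37.3 and 35.2 CPM in KO vehicle, 107 and 109 CPM in KO JSH-23, and 25.2 and 27 CPM in WT JSH-23. It was the largest rise among genes averaging 5 CPM or more in the KO JSH-23 and WT vehicle samples, with a log2 fold change of 3.97 ± 0.078 (SE, adjusted p = 3.10e-52, edgeR's quasi-likelihood test), and its level rose with the KO and with the drug alone. *F5*, which encodes coagulation factor V, measured 1.13 and 1.24 CPM in WT vehicle, 9.89 and 10.2 CPM in KO vehicle, and 10.8 and 12.3 CPM in KO JSH-23. The log2 fold change of *F5* was 3.29 ± 0.19 (SE) in KO JSH-23 and 3.08 in KO vehicle, and KO JSH-23 against KO vehicle was at 0.20 and not called. *Ngfr*, a receptor gene for nerve growth factor, was at 2.49 and 1.94 CPM in WT vehicle, 11.7 and 10.6 CPM in KO vehicle and 9.3 and 9.5 CPM in KO JSH-23, also with no call between the KO groups (-0.24). The nerve markers named above were also higher in these KO samples and in WT JSH-23, and their part in the *Ngfr* result was not tested. *Crisp1*, a secreted protein gene of the male reproductive tract, was higher in KO JSH-23 than in WT vehicle by a log2 fold change of 2.36, compared with 1.74 in KO vehicle. *Avil*, an actin-binding protein gene, was only partly lowered, with 1.37 and 2.24 CPM in WT vehicle, 23.2 CPM in both KO vehicle samples and 6.76 and 7 CPM in KO JSH-23.

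*Sdc3*, *Lrp1* and *Lamc3* were lowered by the KO and kept low after treatment. *Sdc3* (chr4:130792537-130826318), the cell surface proteoglycan syndecan-3, measured 30.2 and 33.1 CPM in WT vehicle, 2.71 and 2.42 CPM in KO vehicle and 1.57 and 2.11 CPM in KO JSH-23. Its log2 fold change of -4.09 ± 0.14 (SE, adjusted p = 4.15e-38) was the largest fall among genes averaging 5 CPM or more in the same samples, and in WT JSH-23 it remained at 27.7 and 25.2 CPM. *Lrp1*, an endocytic receptor of broad ligand range, fell from 392 and 381 CPM to 86.6 and 86.7 CPM, with 118 and 121 CPM in KO vehicle. *Lamc3*, a laminin chain, went from 77.9 and 76.2 CPM to 15.5 and 18 CPM, with 29.2 and 29.1 CPM in KO vehicle. In each of these 3 genes both KO groups lay far below both WT groups and did not overlap them. *Slfn2*, a Schlafen family gene induced by interferon, was lower in both KO groups and higher with the drug alone: 11.2 and 10.8 CPM in WT vehicle, 1.66 and 1.45 CPM in KO vehicle, 1.73 and 2.25 CPM in KO JSH-23, but 19.2 and 18.9 CPM in WT JSH-23. *Saa3*, an acute phase protein gene, and *Lyz2*, the lysozyme of macrophages and neutrophils, were also kept low, with log2 fold changes of -2.63 and -1.72. *Saa3* and *Lyz2* were uneven in WT JSH-23 (10.4 and 1.16 CPM for *Saa3*). Of the 7 myeloid markers tested, 6 were lower and 1 higher in KO vehicle, and 5 were lower in KO JSH-23. *Lyz2* was among the lower ones in both. The part of myeloid RNA in these falls was not tested.

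*Fos* and *Dusp1*, immediate early genes, were among those that returned. *Fos*, an AP-1 transcription factor gene, measured 5.88 and 5.94 CPM in WT vehicle, 32.8 and 34.6 CPM in KO vehicle and 4.27 and 5.66 CPM in KO JSH-23, so the treated KO samples lay just below control and the untreated KO samples far above it. *Dusp1*, which encodes a phosphatase that turns off MAP kinases, followed the same course at 24.4 and 22.6, then 100 and 96.1, then 19.3 and 17.1 CPM. Neither gene was called in KO JSH-23 against WT vehicle, with log2 fold changes of -0.24 and -0.37. *Atp2a3*, a calcium pump of the endoplasmic reticulum, *Soat2*, a cholesterol-esterifying enzyme, and the hair keratin gene *Krt31* also went from a log2 fold change of 2.72, 2.55 and 2.29 in KO vehicle to -0.08, 0.05 and -0.04. The direction of these 3 small residual values is not resolved, since each changed sign under an alternative. Among KO-lowered genes, *Rasa4*, which encodes a Ras GTPase-activating protein, measured 24.5 and 24 CPM in WT vehicle, 10.4 and 8.43 CPM in KO vehicle and 22.3 and 24.3 CPM in KO JSH-23. *Sfmbt2*, a Polycomb-related gene, returned from 52.5 and 50.8 CPM in KO vehicle to 141 and 146 CPM, beside 122 CPM in both WT vehicle samples. *Zfp57*, a zinc finger gene that protects imprints, *Septin5*, a septin cytoskeleton gene, and *TrnL1*, a mitochondrial tRNA gene, went from -1.34, -1.17 and -1.51 to -0.37, 0.26 and 0.17, the last of uncertain sign.

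The overshot genes given next have the largest smaller change of the pair, KO vehicle and KO JSH-23 each against WT vehicle, among those averaging 5 CPM or more over these groups. *Csf3* (chr11:98700183-98703631), which encodes the granulocyte growth factor G-CSF, measured 3.21 and 2.88 CPM in WT vehicle, 10.8 and 13 CPM in KO vehicle and 1.3 CPM in both KO JSH-23 samples. Its log2 fold change against WT vehicle was 1.97 in KO vehicle and -1.23 ± 0.26 (SE, adjusted p = 3.93e-05) in KO JSH-23, and WT JSH-23 was also low at 0.558 and 1.03 CPM. *Cdsn*, which encodes the cell adhesion protein corneodesmosin, went from 66.3 and 68.5 CPM to 139 and 141 CPM with the KO and to 14 CPM in both KO JSH-23 samples. WT JSH-23 lay at 16.4 and 13.1 CPM for *Cdsn*, so the treated samples of both genotypes lay below all untreated ones. *Ceacam16*, which encodes a secreted glycoprotein, measured 4.69 and 5.88 CPM in WT vehicle, 10.3 and 13 CPM in KO vehicle and 1.57 and 1.25 CPM in KO JSH-23, with a log2 fold change of -1.91 after 1.15 in KO vehicle, as did the uncharacterised *LOC115490214* with -1.14 after 1.10. In the opposite direction, the histone gene *H2ac23* measured 34.2 and 30.1 CPM in WT vehicle, 17.5 and 19.8 CPM in KO vehicle and 88 and 86.7 CPM in KO JSH-23. *Mipol1*, the semaphorin gene *Sema4g*, the tubulin gene *Tubb2b* and the neuropeptide precursor gene *Vgf* were likewise lower with the KO and higher than control after treatment, with log2 fold changes of 0.96, 0.89, 0.81 and 0.72. The *Tubb2b* call was lost without WT vehicle sample 2, where its log2 fold change was 0.54.

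Other differences from control did not reach 1.5-fold in untreated KO tumors. Of the 1043 genes higher and 1944 lower in KO JSH-23, 413 and 678 had a KO vehicle 95% interval inside 1.5-fold of WT vehicle. This rule allows smaller changes in KO vehicle, and the counts are a description. Of the 13921 genes tested, 12161 were not called in KO vehicle against WT vehicle. The share of all tested genes inside the interval rule was not counted, so 413 and 678 are not read as many or few. *Ackr3* (chr1:90203980-90215724), a receptor that binds and removes the chemokine CXCL12, measured 135 and 130 CPM in WT vehicle, 152 and 158 CPM in KO vehicle, 20.4 and 20.8 CPM in KO JSH-23 and 21.6 and 20.9 CPM in WT JSH-23. The fall had a log2 fold change of -2.69 ± 0.053 (SE, adjusted p = 3.10e-52), and the treated samples of both genotypes stood together far below the untreated ones. *Zc3h12a*, which encodes a ribonuclease that degrades cytokine mRNAs, fell from 31.4 and 30.9 CPM to 7.08 and 7.34 CPM, and *Jak3*, a cytokine receptor kinase gene, from 34.4 and 36.6 CPM to 7.67 and 8.92 CPM. *Zbtb8b*, a zinc finger gene, fell from 341 and 344 CPM to 79.9 and 78.1 CPM, and the uncharacterised *LOC108169181* from 12.8 and 13.2 CPM to 2.7 and 2.54 CPM. Upward, *Yod1*, which encodes a deubiquitinase, went from 15.1 and 15.5 CPM to 53.2 and 52.9 CPM, and the Hedgehog target *Gli1* from 4.04 and 4.35 CPM to 13.6 and 12.6 CPM. *Gli1* was as high in WT JSH-23, at 15.4 and 15.7 CPM. *Chaserr*, a long non-coding RNA gene next to the chromatin remodeler gene *Chd2*, rose from 35.9 and 38.6 CPM to 157 and 156 CPM.

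*Col16a1*, *Angptl2* and *Spo11* were also among the largest falls of genes averaging 5 CPM or more in the KO JSH-23 and WT vehicle samples. *Col16a1*, a collagen chain, had a log2 fold change of -3.15 in KO JSH-23, -1.30 in KO vehicle and -1.89 in WT JSH-23, so both the KO and the drug alone lowered it. *Angptl2*, a secreted angiopoietin-like protein gene, had -2.38, -0.68 and -1.60 in the same order. *Spo11*, known for making DNA breaks in meiosis, had -2.51 in KO JSH-23 and -3.07 in WT JSH-23. Among rises of the same kind, *LOC115486295*, an uncharacterised locus, had 1.98 in KO JSH-23 and 1.45 in WT JSH-23, and was not called in KO vehicle (-0.21).

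**Figure D3:**
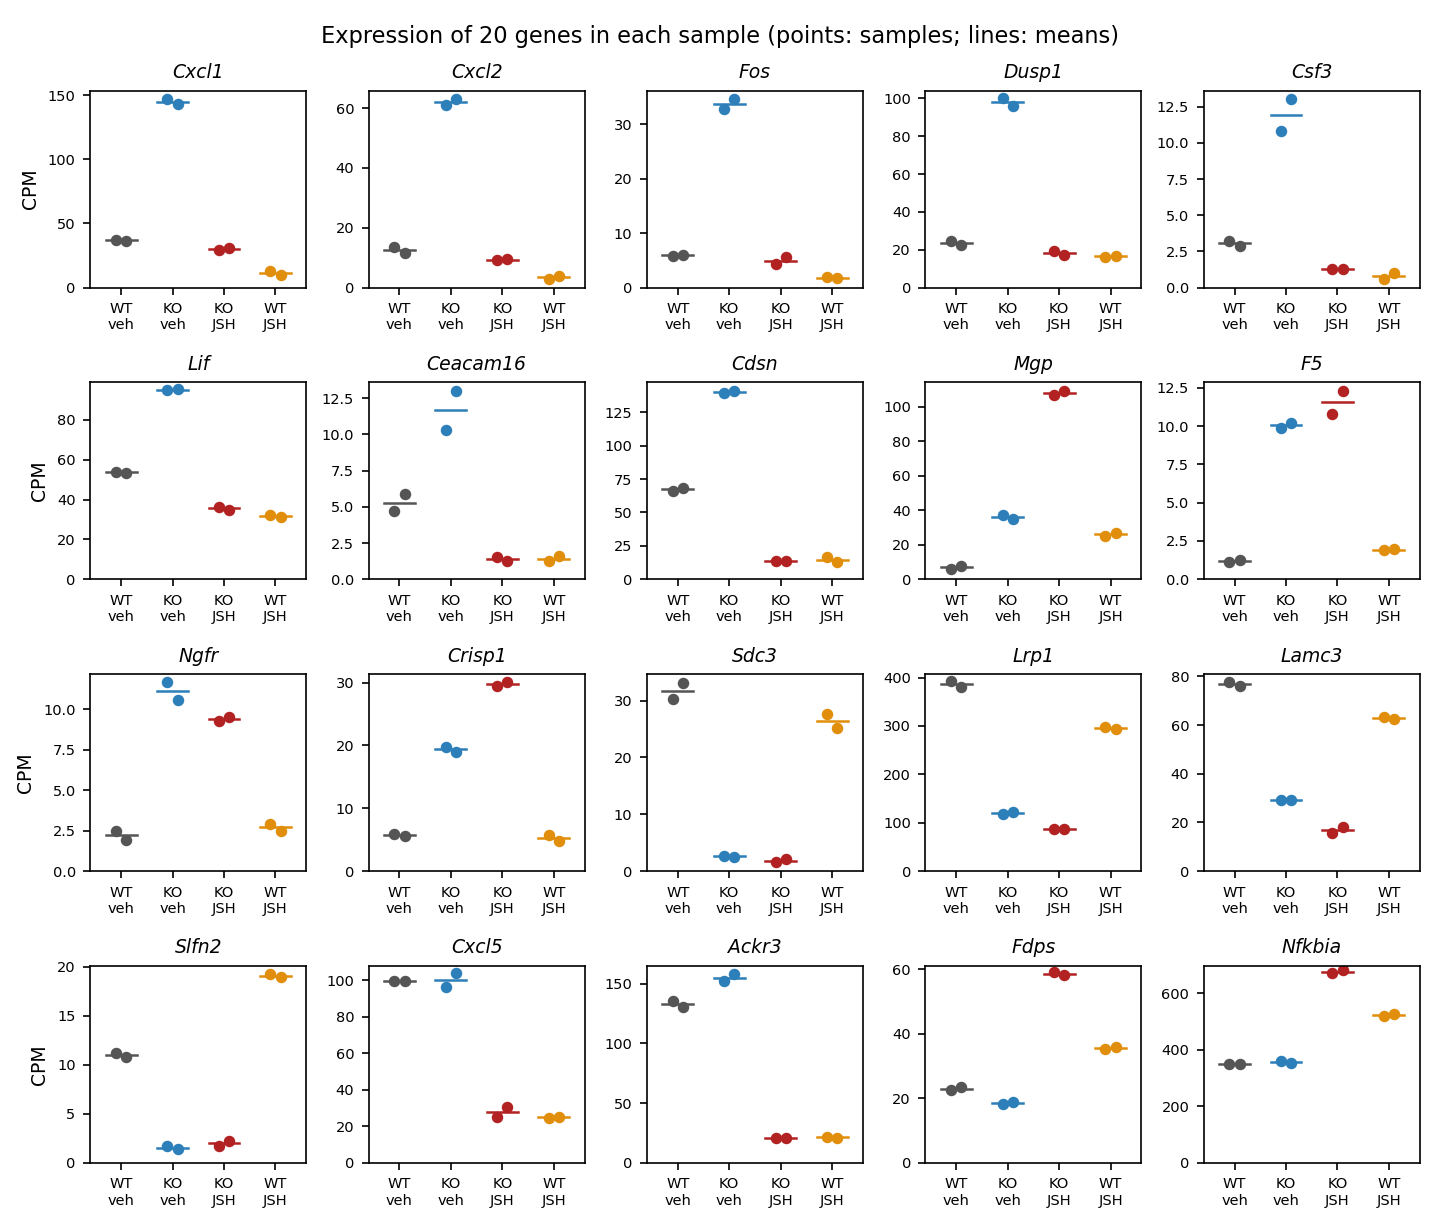
CPM of 20 genes in each sample (points) with the group mean (line), for WT vehicle, KO vehicle, KO JSH-23 and WT JSH-23, each panel with its own axis from 0. *Fos* and *Dusp1* rise with the KO and return near WT vehicle, *Csf3*, *Ceacam16* and *Cdsn* end below it, *F5*, *Ngfr* and *Sdc3* stay where the KO put them, and *Ackr3* and *Cxcl5* move with JSH-23 in both genotypes.

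Chemokine and growth factor genes are classical targets of NF-κB, and 4 promoters are shown because their genes ended at different places. Each line gives the 250 bases before the RefSeq start site on GRCm38.p6, 5′ to 3′ on the gene's strand, with a match to the κB motif GGGANTTTCC or its reverse complement GGAAANTCCC in capitals. *Cxcl1* (chr5:90890995-90891244, plus strand) and *Cxcl2* (chr5:90903649-90903898, plus strand) encode neutrophil-attracting chemokines that ended near control. *Csf1* (chr3:107760470-107760719, minus strand), which encodes the macrophage growth factor M-CSF, ended below it, and *Nfkbia* (chr12:55492648-55492897, minus strand) above it.
Cxcl1: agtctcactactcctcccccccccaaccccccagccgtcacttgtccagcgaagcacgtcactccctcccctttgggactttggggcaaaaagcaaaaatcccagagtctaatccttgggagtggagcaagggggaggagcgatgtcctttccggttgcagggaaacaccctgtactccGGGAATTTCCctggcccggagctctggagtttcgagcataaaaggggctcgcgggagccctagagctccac
Cxcl2: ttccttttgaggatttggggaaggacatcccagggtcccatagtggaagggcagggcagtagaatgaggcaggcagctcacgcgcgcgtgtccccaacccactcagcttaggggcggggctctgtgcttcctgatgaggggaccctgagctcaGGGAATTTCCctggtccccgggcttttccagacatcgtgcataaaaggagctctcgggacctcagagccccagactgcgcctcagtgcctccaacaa
Csf1: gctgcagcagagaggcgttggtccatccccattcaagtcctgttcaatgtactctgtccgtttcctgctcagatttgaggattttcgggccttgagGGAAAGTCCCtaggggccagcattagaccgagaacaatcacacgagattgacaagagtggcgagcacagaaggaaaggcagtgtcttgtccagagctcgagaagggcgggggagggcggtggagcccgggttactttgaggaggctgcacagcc
Nfkbia: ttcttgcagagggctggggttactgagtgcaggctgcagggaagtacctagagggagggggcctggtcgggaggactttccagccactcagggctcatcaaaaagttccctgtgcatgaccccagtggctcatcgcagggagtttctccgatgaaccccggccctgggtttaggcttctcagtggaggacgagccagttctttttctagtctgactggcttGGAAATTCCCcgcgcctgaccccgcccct

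The match began 71 bases before the start in *Cxcl1* and 97 in *Cxcl2*, both on the gene's strand. It lay 154 bases before the start in *Csf1* and 29 in *Nfkbia*, both on the opposite strand. Over windows from 250 bases before to 50 after the start, with both strands searched, the motif was in 104 of 27025 promoters (0.385%). It was in 5 of 17 promoters of the NF-κB target list (29.4%), namely *Cxcl1*, *Cxcl2*, *Cxcl3*, *Csf1* and *Il6*, the last not tested here. The list was made of known NF-κB targets, so this share is not a result of these samples. Among genes called lower in KO JSH-23 against WT vehicle it was in 9 of 1454 promoters (0.619%), and among those called higher in 3 of 808 (0.371%), compared with 46 of 11001 tested genes (0.418%). A match describes letters in this window and does not show binding.

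Of 25 NF-κB target chemokine and cytokine genes listed, 16 passed the filter on low counts and the other 9 were too scarce to test. None was higher and 8 were lower in KO JSH-23 than in WT vehicle, with a median log2 fold change of -1.28 (-1.25 with the 2 genes at 0 set to their bound), beside -0.01 over all genes and 14% of all genes called lower. In KO vehicle against WT vehicle 6 of the 16 were higher and 2 lower (median 0.47), beside 7.48% and 5.16% of all genes. In WT JSH-23 against WT vehicle 10 were lower (median -1.44), beside 10.2% of all genes. *Cxcl1* measured 37.2 and 36.7 CPM in WT vehicle, 147 and 143 CPM in KO vehicle, 29.5 and 31.1 CPM in KO JSH-23 and 13 and 10 CPM in WT JSH-23. The treated KO samples lay slightly below control, with a log2 fold change of -0.29 ± 0.067 (SE), inside 1.5-fold. They nonetheless stood above the treated WT samples. *Cxcl2* measured 13.4 and 11.7 CPM in WT vehicle, 61.1 and 62.9 CPM in KO vehicle, 9.08 and 9.55 CPM in KO JSH-23 and 2.9 and 3.89 CPM in WT JSH-23, the same order of groups. Its log2 fold change in KO JSH-23 was -0.43 ± 0.11 (SE), not called here but called with limma on log2(TPM + 1) at -0.63. The related chemokine gene *Cxcl3* had 0 counts in both KO JSH-23 samples and in 1 of the WT vehicle samples, and was at least 7.43-fold lower in KO JSH-23 than in KO vehicle by the floor of 3 counts per library. Its call against WT vehicle rested on the 0.297 CPM of WT vehicle sample 1 and is read no further, since the log2 fold change was 0.00 without that sample.

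Other members ended well below control. *Cxcl5*, another neutrophil-attracting chemokine gene, measured 99.5 and 99.8 CPM in WT vehicle, 96.5 and 104 CPM in KO vehicle, 25.1 and 30.5 CPM in KO JSH-23 and 24.8 and 25.2 CPM in WT JSH-23. It was not called in KO vehicle (0.01) and fell with the drug in both genotypes, with a log2 fold change of -1.83 ± 0.058 (SE, adjusted p = 9.17e-40). *Csf1* measured 48.7 and 51 CPM in WT vehicle, 41.4 and 42.6 CPM in KO vehicle and 20.9 and 20.1 CPM in KO JSH-23, a log2 fold change of -1.28 ± 0.073 (SE). *Lif*, a cytokine of the interleukin-6 family, measured 54 and 53.2 CPM, 94.7 and 95.6 CPM, and 36.3 and 34.8 CPM in the same groups. Its log2 fold change of -0.59 sat at the threshold and fell short of it at -0.54 without KO JSH-23 sample 2 and -0.58 without WT vehicle sample 1. The interleukin 1 genes were scarce: *Il1b* measured 2.32 and 1.82 CPM in WT vehicle and a single count in each KO JSH-23 sample, and *Il1a* stayed below 1 CPM throughout. The *Il1a* call was lost without KO JSH-23 sample 2 (log2 fold change -1.60) and without WT vehicle sample 1 (-2.14). *Cxcl9*, an interferon-induced chemokine gene, was at 0.713 and 0.823 CPM in WT vehicle and at 0 in KO JSH-23, at least 5.02-fold lower by the same floor. Both *Il1b* and *Cxcl9* were already lower in untreated KO tumors, with log2 fold changes of -2.4 and -4.57 in KO vehicle against WT vehicle. *Il1b* and *Cxcl9* are also expressed by myeloid cells, and the part of these cells was not tested. Of the 7 myeloid markers tested, 6 were lower and 1 higher in KO vehicle, and 5 were lower in KO JSH-23, as given above. The summed level of all 16 was 20.6 and 22.7 CPM in KO vehicle, beside 21.9 and 24.1 CPM in WT vehicle.

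Of 25 NF-κB components and feedback regulators tested, 3 were higher and 8 lower in KO JSH-23 than in WT vehicle, beside 7.49% and 14% of all genes, with a median log2 fold change of -0.16. In KO vehicle 2 (8%) were higher, close to the 7.48% of all genes, and none was lower, beside 5.16%. *Nfkbia*, the IκBα inhibitor gene and a textbook NF-κB target, rose from 349 and 351 CPM in WT vehicle to 673 and 681 CPM in KO JSH-23, with 360 and 352 CPM in KO vehicle and 521 and 527 CPM in WT JSH-23. Its log2 fold change was 0.95 ± 0.02 (SE, adjusted p = 1.32e-49), a direction opposite to that of the chemokines. The other 2 higher genes were *Rel*, which encodes c-Rel (log2 fold change 0.70), and *Map3k14*, which encodes the kinase NIK of the alternative pathway (0.80). *Tnfaip3*, which encodes the feedback inhibitor A20, stayed at 0.18, and this sign turned to -0.05 with limma on log2(TPM + 1). The lower genes held other subunits of the NF-κB family. *Rela* went from 81.1 CPM in both WT vehicle samples to 54.4 and 53.3 CPM. *Nfkb1* went from 82.8 and 73.9 CPM to 46.9 and 44.7 CPM, and *Relb* had a log2 fold change of -0.75. Also lower were the IKK subunit genes *Ikbkb* (-0.60) and *Ikbkg* (-0.76), the adaptor genes *Myd88* (-0.63) and *Traf1* (-1.57), and *Nfkbiz* (-0.83), a nuclear IκB family member. The *Rela* call, at -0.59, was lost without KO JSH-23 sample 2 (-0.56). The *Ikbkb* call was lost without KO JSH-23 sample 2 (-0.58) or WT vehicle sample 1 (-0.56), and the *Myd88* call without KO JSH-23 sample 1 (-0.53) or WT vehicle sample 1 (-0.53).

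The AP-1 and immediate early list had the highest median of the 16 lists in untreated KO tumors, a log2 fold change of 0.72. Of 24 tested, 14 were higher and none lower in KO vehicle against WT vehicle, beside 7.48% and 5.16% of all genes, while 4 were higher and 8 lower in KO JSH-23 against WT vehicle (median -0.25), beside 7.49% and 14%. Between the KO groups 19 of the 24 were lower with treatment, beside 16.9% of all genes. *Fosl1*, which encodes the AP-1 subunit FRA-1, measured 204 and 206 CPM in WT vehicle, 206 and 210 CPM in KO vehicle and 93 and 89.9 CPM in KO JSH-23, a fall with no preceding rise. *Junb* went from 459 and 449 CPM to 655 and 648 CPM with the KO and to 282 and 299 CPM after treatment, and *Jund* had a log2 fold change of -0.61. *Ier2*, an immediate early gene, and *Dusp6*, which encodes an ERK phosphatase, were lower by -0.78 and -0.62. *Dusp4*, a related phosphatase gene, stayed higher at 180 and 182 CPM beside 107 and 108 CPM in WT vehicle. *Egr1* (0.65), *Atf3* (0.61) and *Jun* (0.60), all transcription factor genes of the early response, also stayed higher, close to the threshold. Their calls were lost without 1 KO JSH-23 sample, sample 1 for *Egr1* (0.54) and *Atf3* (0.58) and sample 2 for *Jun* (0.57), *Egr1* also without WT vehicle sample 1 (0.58). With limma on log2(TPM + 1) none of the 24 was higher and 7 were lower. The *Jund* call was lost without WT vehicle sample 2 (-0.57). *Myc* measured 17.2 and 16.5 CPM in WT vehicle, 55.4 and 54.6 CPM in KO vehicle and 22.2 and 24.4 CPM in KO JSH-23, and was not called against control.

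The integrated stress and unfolded protein response, in which *Atf4* directs amino acid and redox genes, had 25 genes tested. In KO vehicle 11 were higher and none lower (median log2 fold change 0.45), beside 7.48% and 5.16% of all genes, and in KO JSH-23 against WT vehicle 1 was higher and 2 were lower (median 0.29), beside 7.49% and 14%. *Trib3*, a pseudokinase gene induced by this response, measured 45.4 and 44.4 CPM in WT vehicle, 162 and 164 CPM in KO vehicle and 35.8 and 31.7 CPM in KO JSH-23. *Atf4* measured 246 and 239 CPM, 496 and 488 CPM, and 321 and 330 CPM in the same groups, between the untreated groups and inside 1.5-fold of control. *Ddit3*, which encodes the stress factor CHOP, was at a log2 fold change of 1.55 in KO vehicle and 0.47 in KO JSH-23. *Sesn2*, a stress-induced regulator of mTORC1, overshot with 35.9 and 37.7 CPM in WT vehicle, 60.2 and 63.1 CPM in KO vehicle and 21.2 and 24.7 CPM in KO JSH-23, and its call was lost without KO JSH-23 sample 1 (-0.56). The chaperone gene *Dnajb9* was lower (-0.88) and *Sdf2l1*, also of the endoplasmic reticulum, higher (0.76).

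Of 25 interferon response and antigen presentation genes tested, 1 was higher and 9 were lower in KO JSH-23 than in WT vehicle (median log2 fold change -0.36), beside 7.49% and 14% of all genes, compared with 5 higher and 2 lower in KO vehicle (median 0.28), beside 7.48% and 5.16%. The median turned to 0.06 when at least 10 counts were required in every sample. *Gbp2*, which encodes an interferon-induced GTPase, measured 3.27 and 3.29 CPM in WT vehicle, 7.18 and 8.38 CPM in KO vehicle and 0.757 and 0.815 CPM in KO JSH-23, an overshoot. *Irf7*, a transcription factor gene of the interferon response, had a log2 fold change of -1.47, *Oasl2*, an interferon-induced gene, -1.02, and the immunoproteasome subunit gene *Psmb10* -0.99. *B2m*, which encodes the light chain of MHC class I, was the exception, higher at 391 and 396 CPM in KO JSH-23 beside 238 and 231 CPM in WT vehicle and 347 CPM in both KO vehicle samples. The *B2m* call was lost with limma on log2(TPM + 1) (0.51).

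Of 29 cholesterol and fatty acid synthesis genes tested, 9 (31%) were higher, none lower and 20 not called in KO JSH-23 (median log2 fold change 0.45), beside 7.49% of all genes called higher. In KO vehicle none was higher and 3 (10.3%) were lower (median -0.07), beside 5.16% of all genes called lower. In WT JSH-23 3 (10.3%) were higher (median 0.25), beside 5.55% of all genes. *Fdps*, which makes farnesyl pyrophosphate, measured 22.6 and 23.4 CPM in WT vehicle, 18.1 and 19 CPM in KO vehicle, 59.1 and 58.2 CPM in KO JSH-23 and 35.2 and 36 CPM in WT JSH-23. The treated KO samples were the highest, with a log2 fold change of 1.35 ± 0.068 (SE, adjusted p = 3.19e-28). Other enzymes of the mevalonate and sterol steps called higher were *Msmo1* (1.17), *Mvd* (1.16), *Tm7sf2* (0.92), *Cyp51* (0.90), *Mvk* (0.85) and *Fdft1* (0.79). *Srebf2*, which encodes the transcription factor that drives these genes, measured 173 and 170 CPM in WT vehicle and 276 and 273 CPM in KO JSH-23. Under limma on log2(TPM + 1) 6 of the 29 were higher and none lower, with a median of 0.22, and the *Srebf2* and *Fdft1* calls were lost (0.44 and 0.53).

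NRF2 is a transcription factor for antioxidant genes. Of 23 genes of its list tested, 5 were higher and 2 lower in KO JSH-23 (median log2 fold change 0.22), beside 7.49% and 14% of all genes. None was called in KO vehicle, and 4 were higher and 1 lower in WT JSH-23, beside 5.55% and 10.2% of all genes. *Fth1*, which encodes the ferritin heavy chain, measured 1584 and 1560 CPM in WT vehicle, 1966 and 1969 CPM in KO vehicle, 3151 and 3214 CPM in KO JSH-23 and 2433 and 2407 CPM in WT JSH-23. *Taldo1*, an enzyme gene of the pentose phosphate pathway, had a log2 fold change of 1.06, and *Gstm1*, a glutathione transferase gene, 0.82. *Txn1*, which encodes thioredoxin, was at the threshold at 0.60 and lost its call without WT vehicle sample 1 (0.58). *Hmox1*, which encodes the heme-degrading enzyme heme oxygenase 1, went the other way, from 127 and 129 CPM to 47.2 and 45.6 CPM, and *Keap1*, the NRF2 inhibitor gene, was lower by -0.67. The list's median turned to -0.02 with limma on log2(TPM + 1).

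The median log2 fold change in KO JSH-23 against WT vehicle differed with gene length, from 0.23 in genes of up to 500 bases to -0.10 in genes over 5000 bases, whereas in KO vehicle against WT vehicle it lay between -0.08 and 0.04 and in WT JSH-23 against WT vehicle between -0.02 and 0.07. Beside this shift, the 77 cytosolic ribosomal protein genes, with a median length of 795 bases, had a median of 0.43 in KO JSH-23, all between 0.18 and 0.71, with 5 called higher (6.49%, beside 7.49% of all genes) and none lower. Their share of all counts was 7.62% and 7.59% in WT vehicle and 9.58% and 9.62% in KO JSH-23. *Rpl27* went from 714 and 703 CPM to 1113 and 1114 CPM, and *Rpl34* from 31.6 and 32.9 CPM to 50.5 and 55.1 CPM. With the length trend removed, an alternative chosen after seeing the data, the median of the list was 0.26 and none of the 77 was called. The 67 nuclear-encoded subunits of oxidative phosphorylation, the respiratory chain and ATP synthase, had a median length of 1001 bases and a median of 0.39, with 11 higher (16.4%) and 2 lower, which became 0.18 with 3 higher and 2 lower once the trend was removed. *Uqcrq*, a complex III subunit gene, measured 61.3 and 58.6 CPM in WT vehicle, 92 and 96.2 CPM in KO vehicle and 124 and 116 CPM in KO JSH-23. *Cycs*, which encodes cytochrome c, had a log2 fold change of 0.94, and *Ndufa9*, a complex I subunit gene, was lower at -0.73.

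**Figure D4:**
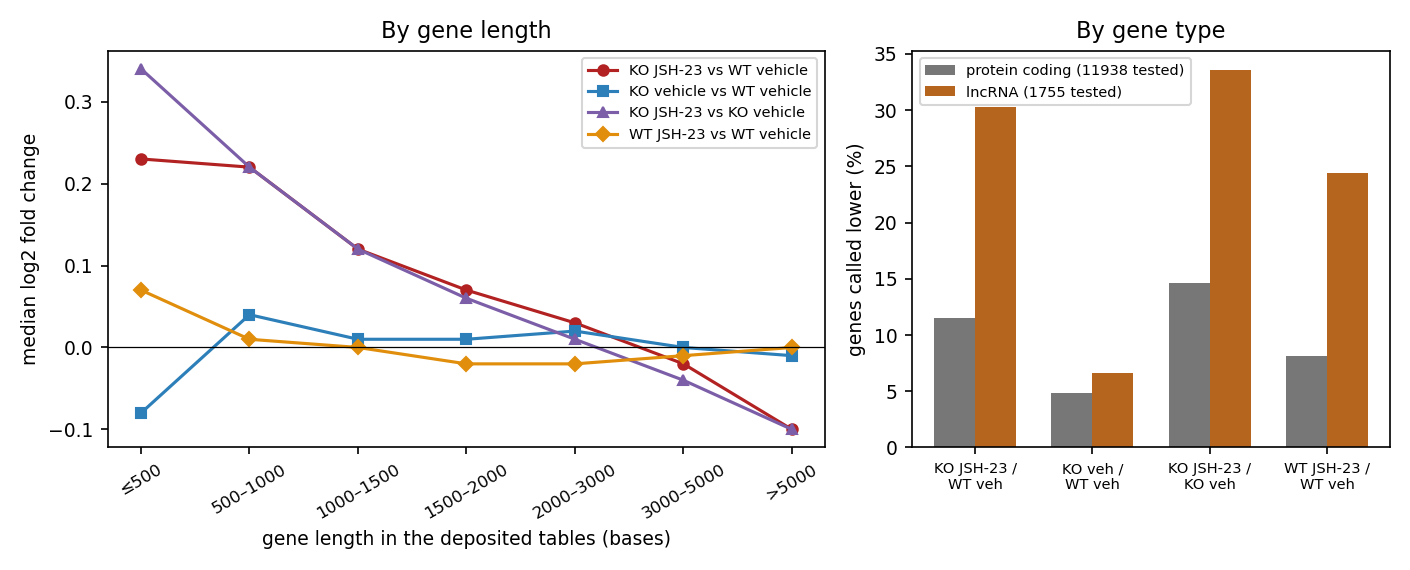
Left, median log2 fold change of the tested genes in 7 bins of gene length, 1 line for each of the 4 comparisons; right, percent of protein-coding genes (grey, 11938 tested) and lncRNA genes (brown, 1755 tested) called lower in each comparison. The KO JSH-23 against WT vehicle line falls from 0.23 to -0.10 with length, and 30.3% of lncRNA genes were lower there beside 11.5% of protein-coding genes.

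Of 1755 lncRNA genes tested, 30.3% were lower in KO JSH-23 than in WT vehicle (median log2 fold change -0.35), compared with 11.5% of 11938 protein-coding genes (median 0.01). At 5 CPM or more the shares were 28.9% of 301 lncRNA genes and 8.21% of 9859 protein-coding genes. In WT JSH-23 the shares were 24.4% and 8.11%, and in KO vehicle 6.61% and 4.84%. The summed lncRNA share of all counts was 1.39% in both WT vehicle samples, 1.17% in both KO JSH-23 samples, 1.14% in both WT JSH-23 samples, and 1.49% and 1.47% in KO vehicle. Of the KO-raised genes, 181 were lncRNA genes, of which 58 were overshot and 23 kept. These shares are close to the 30.3% of all tested lncRNA genes called lower and 11.7% called higher in KO JSH-23 against WT vehicle. Against this trend *Rn7s1* and *Rn7s2*, near-identical copies of the 7SL RNA of the signal recognition particle whose reads cannot be assigned with certainty, rose. *Rn7s2* measured 533 and 396 CPM in WT vehicle, 400 and 333 CPM in KO vehicle, 2107 and 1994 CPM in KO JSH-23 and 580 and 471 CPM in WT JSH-23, so the treated KO samples lay far above all others and the treated WT samples overlapped WT vehicle.

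Histone genes were grouped after their values were seen. Of 22 tested, with a median length of 557 bases, 7 were lower and none higher in KO vehicle (median log2 fold change -0.56), beside 5.16% of all genes called lower there, while 9 were higher and 2 lower in KO JSH-23 (median 0.58), beside 7.49% and 14% of all genes. *H1f0*, which encodes a replication-independent linker histone, measured 332 and 334 CPM in WT vehicle, 336 and 328 CPM in KO vehicle, 882 and 900 CPM in KO JSH-23 and 549 and 545 CPM in WT JSH-23. *H1f2*, another linker histone gene, went from 14.3 and 16.9 CPM to 44.9 and 45.8 CPM. Clustered histone genes are similar in sequence and their mRNAs mostly lack poly(A) tails, so their counts depend on how reads were assigned and RNA selected.

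Of 38 matrix and adhesion genes tested, none was higher and 11 (28.9%) were lower in KO JSH-23 than in WT vehicle (median log2 fold change -0.34), beside 14% of all genes called lower. In KO vehicle 3 (7.89%) were higher and 6 (15.8%) lower, beside 7.48% and 5.16% of all genes. In WT JSH-23 2 (5.26%) were higher and 10 (26.3%) lower, beside 5.55% and 10.2% of all genes. *Col5a1*, a fibrillar collagen gene, measured 325 and 323 CPM in WT vehicle, 285 CPM in both KO vehicle samples, 162 and 168 CPM in KO JSH-23 and 211 and 210 CPM in WT JSH-23. *Lamb3*, a basement membrane laminin chain, went from 63.5 and 57.3 CPM to 27.3 and 26.3 CPM, and *Itgav*, the integrin αv gene, from 314 and 311 CPM to 186 and 185 CPM. *Col7a1*, the anchoring fibril collagen gene, was lower by -1.94, *Col12a1* by -1.18 and the hemidesmosome integrin gene *Itgb4* by -0.99. Fibroblast and smooth muscle markers summed to 62 and 78.3 CPM in WT vehicle and 54.5 and 42.6 CPM in KO JSH-23, with 1 of 8 tested lower, 2 of 12 at 0 in both groups, and most of the sum from *Pdgfra*. Their part in the matrix result was not tested.

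Proliferation, lineage and metabolic lists stand beside 21.5% of all genes called in KO JSH-23 against WT vehicle: 33.3% of prostate luminal, 21.4% of epithelial and mesenchymal, 20% of hypoxia, 12.1% of cell cycle, 9.52% of glycolysis and 8% of SWI/SNF genes were called. Of 33 cell cycle genes 2 were higher and 2 lower in KO JSH-23 (median 0.17). *Ccnd1*, which encodes cyclin D1, measured 245 and 243 CPM in WT vehicle, 287 and 278 CPM in KO vehicle and 139 and 135 CPM in KO JSH-23, and its partner kinase gene *Cdk6* fell from 150 and 151 CPM to 84.5 and 84.6 CPM. *Ccne1*, the cyclin E1 gene, stayed higher at 0.74, a call lost without WT vehicle sample 2 (0.51). *Mki67*, the Ki-67 proliferation marker gene, was at 0.46 and not called, and *Pcna* and *Cdc20*, changed in opposite directions by the KO (0.68 and -1.13), were at -0.22 and 0.24. Of 25 SWI/SNF subunit genes 2 were lower, *Arid1a* and *Smarcc2*, and *Smarcc2*, which encodes the core subunit BAF170, measured 102 CPM in both WT vehicle samples, 98 and 105 CPM in KO vehicle, 56.8 and 57.8 CPM in KO JSH-23 and 63.5 and 69.2 CPM in WT JSH-23. Of 12 genes of the prostate luminal list 2 were higher, *Krt8* (0.86) and the prostate transporter gene *Slc45a3* (0.88), and 2 lower, *Steap4* (-1.14), a metalloreductase gene, and *Abcc4* (-0.68), an efflux pump gene. Of 24 epithelial and mesenchymal genes listed, 14 were tested, and 1 was higher and 2 were lower. The higher gene was *Snai1*, a mesenchymal member, with a log2 fold change of 1.83 after 1.72 in KO vehicle. *Tgfbi* was among the lower, with -3.59 after -2.80 in KO vehicle. In the separate epithelial marker list the keratin gene *Krt19* stayed higher, at 79.7 and 82.9 CPM beside 41 and 36.7 CPM in WT vehicle. *Vim*, the vimentin gene, was lowered by the KO from 1147 and 1152 CPM to 541 and 537 CPM and returned to 987 and 984 CPM. Glycolysis (2 of 21 higher, none lower) and hypoxia genes (2 of 20 higher, 2 lower) had medians of 0.02 and 0.09. *Pfkfb4*, a glycolytic regulator gene, rose from 10.2 and 10.6 CPM to 19.4 and 18.8 CPM, and the lactate transporter gene *Slc16a3* was between 3.6 and 3.84 CPM in KO JSH-23 and between 1.96 and 2.12 CPM in WT vehicle. With limma on log2(TPM + 1) the medians of the cell cycle, glycolysis, hypoxia and prostate lists turned to -0.06, -0.21, -0.14 and -0.09, so no direction is given for these lists.

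**Figure D5:**
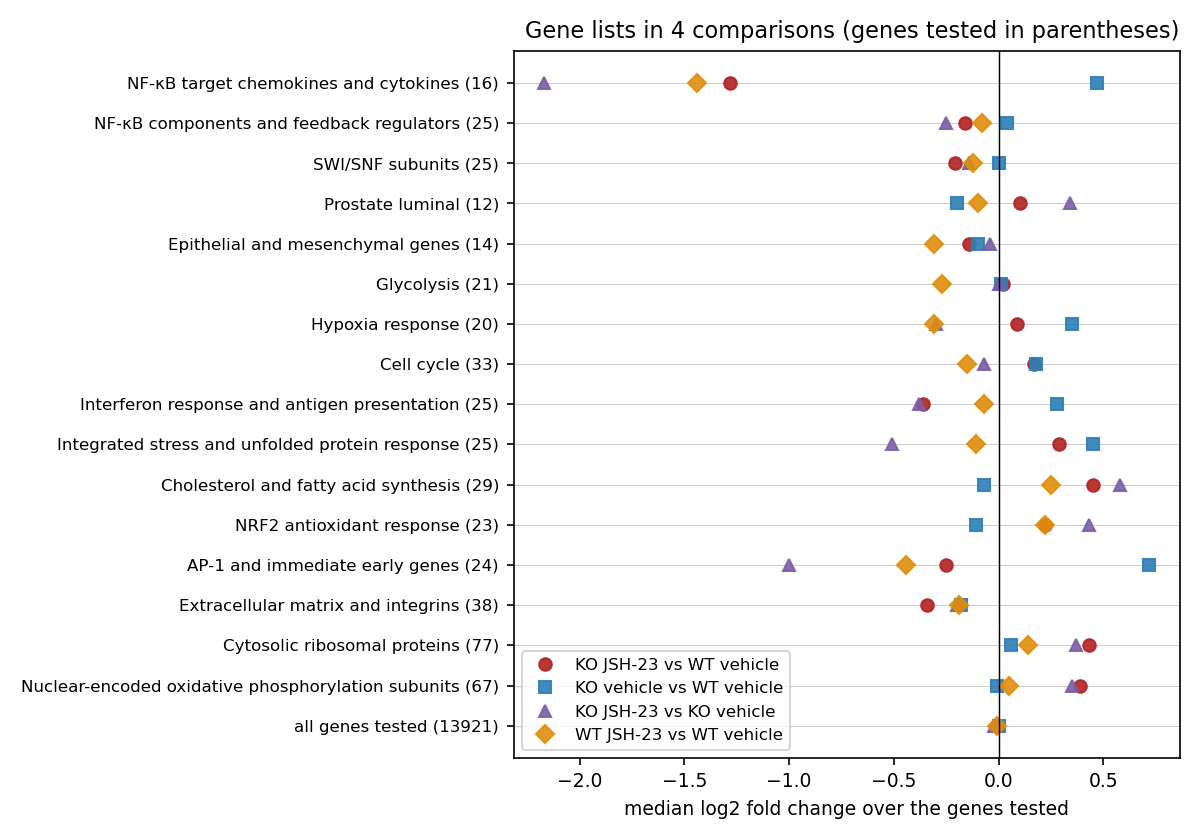
Median log2 fold change of each of 16 gene lists and of all genes tested in the 4 comparisons, with the number of genes tested in parentheses. NF-κB targets lie at -1.28 in KO JSH-23 against WT vehicle (red circles) and at 0.47 in KO vehicle against WT vehicle (blue squares), cholesterol and fatty acid synthesis at 0.45 and -0.07, and all genes at -0.01 and 0.00. The NRF2 circle is hidden behind the WT JSH-23 diamond, both at 0.22.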

How the data were processed

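RNA-seq was made from sorted cells of 8 tumor samples, 2 in each of 4 groups taken from the labels. The authors aligned reads to mm10 (TopHat2 in the study's methods, HISAT2 in the submitters' processing notes), counted them per gene with strand-aware HTSeq, and deposited 1 table per sample with raw read counts. The deposited tables also hold TPM values, for which the sources used here describe no calculation.

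All 8 samples were fitted together with edgeR 4.0.16 (R 4.3.3) on the deposited counts: filterByExpr, TMM scaling, a quasi-likelihood fit with 1 term per group, and Benjamini-Hochberg adjustment over 13921 of 39089 genes. CPM was computed on TMM-scaled library sizes. Alternatives used DESeq2 1.42.0 and limma 3.58.1 on log2(TPM + 1) and log2(TPM + 0.1), other filters and scalings, and each sample left out. Genes were named from fixed lists and by largest change within each class. Members and lists were chosen with earlier results of these data known. Scripts were tested on simulated data. A few genes that these rules name are not reported here. Counting precision follows from 3 counts being at most 0.182 CPM.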

Additional observations from a re-analysis of the deposited data

How the results depend on the processing

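Over 332 counts of genes under alternatives, 294 stayed within 1.5 times the reported count and 38 did not. Testing against the 1.5-fold threshold itself gave 1483 calls (467 higher, 1016 lower) in KO JSH-23 against WT vehicle, 682 (411 and 271) in KO vehicle against WT vehicle, 2144 (665 and 1479) in KO JSH-23 against KO vehicle and 795 (224 and 571) in WT JSH-23 against WT vehicle. It left 81 KO-raised genes kept, 23 overshot, 116 within and 191 unresolved, and 106, 6, 89 and 70 KO-lowered genes, from fewer genes called by construction. Limma on log2(TPM + 1) gave 341 higher genes in KO JSH-23 against WT vehicle, 407 against KO vehicle and 448 in WT JSH-23, with 110 KO-raised genes kept and 200 unresolved, and 10 KO-lowered genes overshot and 91 unresolved. On log2(TPM + 0.1), KO JSH-23 had 502 higher and 3134 lower genes against WT vehicle and 553 higher against KO vehicle, with 21 KO-lowered genes overshot. No scaling gave 843 higher genes in KO JSH-23 against KO vehicle and 21 KO-lowered genes overshot. DESeq2 placed 100 KO-raised genes as overshot. Requiring 10 counts in every sample left 218 KO-raised genes unresolved and 20 KO-lowered genes overshot. Leaving out each WT vehicle, KO vehicle or KO JSH-23 sample in turn gave between 104 and 146 overshot KO-raised genes (115 without WT vehicle sample 1 and 104 without sample 2). The cause of the TPM, scaling and DESeq2 shifts was not tested.

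Of 1988 alternative values for 133 named genes, 1862 kept direction and call, 106 lost the call, 6 gained one and 14 changed sign. The sign changes were *Atp2a3* at 0.01 and 0.12 (range -0.25 to 0.12), *Krt31* at 0.06 and 0.13 (-0.17 to 0.13) and *Rasa4* at 0.02 (-0.10 to 0.02) with single samples left out, *Soat2* at -0.17, -0.13 and -0.03 (TPM + 0.1, TPM + 1 and no scaling, and -0.03 to 0.15 with single samples left out), *TrnL1* at -0.06 and *Tnfaip3* at -0.05 under both TPM settings, and *Cxcl3* at 0.00 without WT vehicle sample 1 (-5.49 to 0.00). Of 240 list medians, 86 moved.

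Samples share replicate numbers across groups, but deviations of same-numbered samples correlated between -0.1 and 0.04, so the numbers were not read as pairs. With the replicate block KO JSH-23 against WT vehicle had 1035 higher and 1933 lower genes, and no count of calls moved by over 1.5 times. With 2 samples a group, differences in genes under about 2 CPM remain poorly resolved.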
